A study of Drosophila melanogaster with 12 samples.

Results

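Oxidative phosphorylation genes were followed in cells sorted by DNA content. They were taken as all genes whose platform annotation gives 1 symbol that begins with ND-, Sdh, UQCR, Cyt-c1, RFeSP, COX or ATPsyn. This rule found 76 of the 11981 genes that have a probe set of their own, and 56 of the 76 passed a filter on dim probe sets (a log2 intensity of at least 5 on 3 or more of the 12 arrays). By symbol, 27 of the 56 belonged to complex I, 4 to complex II, 7 to complex III, 7 to complex IV and 11 to complex V. RNA was measured on Affymetrix Drosophila arrays in 4 groups of 3 arrays. The groups disc G1 and disc G2 were cells of wing imaginal discs, the larval sac of epithelium from which wing and notum develop, from OreR larvae (instar 3, wandering stage) raised at 25 °C. The groups S2 G1 and S2 G2 were S2 cells, a line grown in culture that was derived from embryos and resembles blood cells, kept for fewer than 30 passages. G1 was a 2C gate and G2 a 4C gate, which also holds mitotic cells. No group carried a mutation or a treatment named in the labels. Disc arrays were numbered 2, 3 and 4 and S2 arrays 4, 5 and 6, and values are given in that order. Whether the arrays of a group stem from separate dissections or cultures is not stated, and the p-values reflect only how these samples vary, which may be technical.

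Respiratory complexes I to IV pass electrons from NADH and succinate to oxygen, and complexes I, III and IV pump protons across the inner mitochondrial membrane. Complex V, the ATP synthase, uses the returning protons to make ATP. Most subunits are encoded in the nucleus and imported, while the catalytic core of complex IV and part of complexes I, III and V come from mitochondrial DNA and were not analysed here. Flies also carry second copies of many subunit genes, named with a final L, and such copies are often expressed in the testis.

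Most markers matched the labels of the arrays. Over the arrays, the median log2 intensity ran from 4.18 to 4.37 and the maximum from 14.80 to 14.95. The disc factors nub, en and ci had means of at least 9.03 in both disc groups and at most 3.98 in S2. The blood cell factor srp and the blood cell clotting gene Hml had means of at least 10.43 in S2 and at most 5.85 in the disc. Of 7 disc markers, ap and pnr were higher in S2, and of 8 blood cell markers NimC1 and Ppn were higher in the disc. Of 5 replication genes, 5 fell in disc G2 and 4 in S2 G2. Of 4 mitotic genes, 1 rose in disc G2 and 4 in S2 G2.

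The other 20 members stayed below the filter. They were 19 gene copies (ND-24L, ND-51L1, ND-51L2, ND-B14.5AL, SdhAL, SdhBL, SdhCL, UQCR-11L, UQCR-14L, COX4L, COX5BL, COX6AL, COX6AL2, COX6CL, COX7AL, COX7AL2, ATPsynCF6L, ATPsynGL and ATPsynbetaL) and the complex I subunit ND-B8. Their group means ran from 2.68 to 5.00, and only COX4L and COX7AL reached 5 on any array (1 array each, with highest values of 5.06 and 5.19). In COX7AL the group means were 4.80 and 4.38 in S2 G1 and G2 against 3.55 and 3.53 in disc G1 and G2, all near background. Of the gene copies, 3 passed the filter: ND-20L, Cyt-c1L and ATPsynepsilonL. The rest of those that passed were 52 subunits and the assembly factor Sdhaf3.

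The difference between tissues, disc minus S2, set the average of the disc gates against that of the S2 gates. It asked whether the respiratory genes are expressed alike in a growing epithelium and a cultured line. Of the 56 members, 38 were lower in the disc, 8 were higher and 10 did not pass the test (adjusted p under 0.05). Among all 6940 genes followed, 44.7% were lower and 39.9% higher by the same test. The fit counted both gates of a same-numbered pair as separate arrays, although such arrays deviated together. The SE and p-values of differences between tissues may therefore be too small. The median difference of the members was -0.36 on the log2 scale and that of all genes was -0.05. Subtracting array medians moved the median of all genes to -0.16 and that of the members to -0.47, with 44 members lower and 5 higher. By that scaling 48.4% of all genes were lower and 34.4% higher. All 6 disc arrays lay below all 6 S2 arrays in 34 members and above them in 5, against 35.5% and 30.8% of all genes. In the plot by complex the differences ranged from -2.06 in ND-B14.5A to 1.36 in ATPsynepsilonL. Complexes I, II and V held members that passed in either direction, while all estimates of complexes III and IV were below 0.

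**Figure D1:**
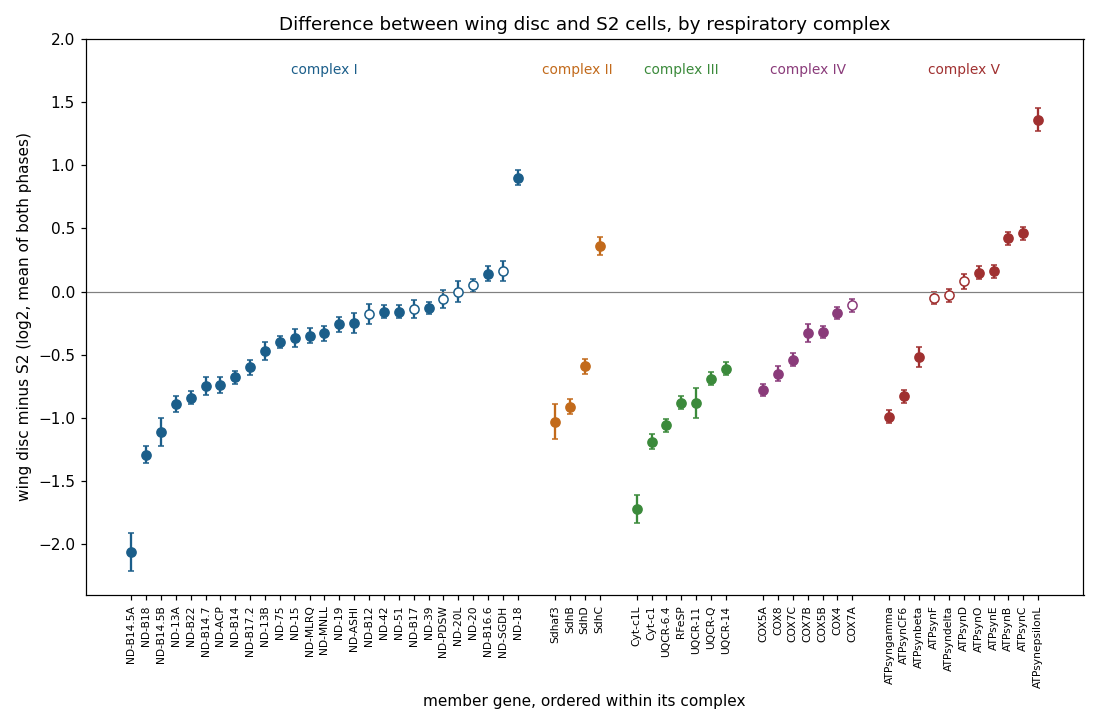
Disc minus S2 difference (log2, mean of both phases) of the 56 members, ordered within complexes I to V. Points are estimates from the fit to 12 arrays and bars their SE, and filled points passed the test. All 7 points of complex III lie below 0, and complex V has 5 filled points above 0 and 3 below.

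Complex III was lower in the disc in all 7 of its measured members, with a median of -0.88. Cyt-c1 (CG4769), cytochrome c1, carries the haem that hands electrons to cytochrome c. Its log2 values were 11.29, 11.24 and 11.31 in disc G1, 11.06, 10.87 and 11.07 in disc G2, 12.21, 12.37 and 12.27 in S2 G1 and 12.38, 12.37 and 12.36 in S2 G2. Every disc array was lower than every S2 array, and the difference was -1.19 ± 0.06 (adjusted p = 8.94e-10), which is 2.27-fold. RFeSP (CG7361), the Rieske iron-sulfur protein, had values of 11.28, 11.20 and 11.21 in disc G1, 11.07, 11.10 and 11.07 in disc G2, 12.02, 12.07 and 12.07 in S2 G1 and 11.98, 12.06 and 11.98 in S2 G2. The groups of the tissues did not overlap here either, with a difference of -0.88 ± 0.05 (adjusted p = 3.62e-09). The copy Cyt-c1L (CG14508) read 5.52, 5.36 and 5.50 in disc G1, 5.48, 5.02 and 4.75 in disc G2, 7.22, 7.22 and 7.13 in S2 G1 and 6.91, 6.92 and 6.56 in S2 G2, a difference of -1.72 ± 0.11 (adjusted p = 2.21e-08). The smallest difference was that of UQCR-14 (CG3560), an accessory subunit, which read 12.54, 12.59 and 12.54 in disc G1, 12.37, 12.47 and 12.38 in disc G2, 13.05, 13.09 and 13.16 in S2 G1 and 13.08, 13.09 and 13.08 in S2 G2. It was -0.61 ± 0.05 (adjusted p = 1.58e-07), again without overlap of the tissues. The accessory subunits UQCR-6.4, UQCR-11 and UQCR-Q differed by -1.06 ± 0.05, -0.88 ± 0.12 and -0.69 ± 0.05. The means of Cyt-c1L (5.46 and 5.09) and of UQCR-11 (5.51 and 5.27) in disc G1 and G2 lay near background, which limits the size of both differences, and both enter the median of the complex.

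Complex II, succinate dehydrogenase, was lower in the disc in 3 members and higher in 1, with a median of -0.75. Without the assembly factor Sdhaf3 the median of the 3 subunits was -0.59. SdhB (CG3283), the iron-sulfur subunit, was lower in the disc. It read 9.84, 9.83 and 9.75 in disc G1, 9.70, 9.78 and 9.79 in disc G2, 10.59, 10.59 and 10.75 in S2 G1 and 10.79, 10.81 and 10.64 in S2 G2, with no overlap of the tissues and a difference of -0.91 ± 0.06 (adjusted p = 1.27e-08). The membrane anchor gene SdhD (CG10219) read 10.50, 10.65 and 10.44 in disc G1, 10.45, 10.71 and 10.55 in disc G2, 11.24, 11.16 and 11.12 in S2 G1 and 11.10, 11.14 and 11.05 in S2 G2 and was also lower on every disc array, with a difference of -0.59 ± 0.06 (adjusted p = 2.67e-06). In contrast SdhC (CG6666), which encodes the other anchor, was higher in the disc. Its values were 11.27, 11.37 and 11.33 in disc G1, 11.07, 11.28 and 11.19 in disc G2, 10.97, 10.80 and 11.15 in S2 G1 and 10.93, 10.86 and 10.67 in S2 G2, and the difference of 0.36 ± 0.07 (adjusted p = 0.000782) passed although S2 G1 array 6 overlapped disc G2. Sdhaf3 (CG14898), an assembly factor, read 8.94, 9.39 and 9.22 in disc G1, 8.68, 9.30 and 8.93 in disc G2, 10.10, 9.79 and 10.44 in S2 G1 and 10.13, 9.90 and 10.30 in S2 G2, lower on every disc array, with a difference of -1.03 ± 0.14 (adjusted p = 1.87e-05). The flavoprotein gene SdhA was not analysed here.

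Complex IV, cytochrome c oxidase, was lower in the disc in 6 of 7 members, with a median of -0.33. These nuclear-encoded subunits surround the catalytic core. COX5A (CG14724) read 12.58, 12.65 and 12.51 in disc G1, 12.35, 12.39 and 12.33 in disc G2, 13.21, 13.19 and 13.38 in S2 G1 and 13.20, 13.22 and 13.28 in S2 G2. It had the largest difference of the complex, -0.78 ± 0.05 (adjusted p = 4.21e-08), and every disc array was below every S2 array. COX5B (CG11015) read 12.22, 12.30 and 12.23 in disc G1, 12.05, 12.19 and 12.15 in disc G2, 12.55, 12.50 and 12.53 in S2 G1 and 12.50, 12.45 and 12.49 in S2 G2, a difference of -0.32 ± 0.05 (adjusted p = 7.96e-05). For COX4 (CG10664) the values were 12.43, 12.48 and 12.41 in disc G1, 12.29, 12.37 and 12.38 in disc G2, 12.58, 12.60 and 12.63 in S2 G1 and 12.48, 12.50 and 12.58 in S2 G2, which is -0.17 ± 0.05 (adjusted p = 0.00764), the smallest difference that passed. The tissues did not overlap in either, although disc G1 array 3 and S2 G2 array 4 of COX4 both rounded to 12.48. COX8, COX7C and COX7B differed by -0.65 ± 0.06, -0.54 ± 0.05 and -0.33 ± 0.07. COX7A was at -0.11 ± 0.05 and did not pass (adjusted p = 0.0633).

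Complex I, the NADH dehydrogenase, was lower in the disc in 19 of 27 members and higher in 2, and 6 did not pass. The median was -0.33. ND-B14.5A (CG3621), an accessory subunit, had the largest difference of all members. It read 9.89, 10.29 and 10.28 in disc G1, 10.04, 10.44 and 10.34 in disc G2, 11.98, 11.86 and 12.69 in S2 G1 and 12.38, 12.12 and 12.64 in S2 G2. The disc arrays were lower than the S2 arrays throughout, with a difference of -2.06 ± 0.15 (adjusted p = 6.28e-08) or 4.18-fold. The S2 values were uneven, with array 6 highest in both gates and an SD of 0.45 in S2 G1, the largest of any member and group. The opposite case was ND-18 (CG12203), whose mammalian counterpart is an accessory subunit beside the NADH-binding part. Its values were 10.62, 10.77 and 10.54 in disc G1, 10.34, 10.46 and 10.44 in disc G2, 9.67, 9.63 and 9.82 in S2 G1 and 9.57, 9.55 and 9.52 in S2 G2. Every disc array was above every S2 array, with a difference of 0.90 ± 0.06 (adjusted p = 2.46e-08) or 1.87-fold. ND-B16.6 was the other member higher in the disc (0.14 ± 0.06, adjusted p = 0.0439). Its call was lost with array medians subtracted and with no filter. It held without S2 G1 array 6 or S2 G2 array 5 and was lost without any other single array.

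Of the subunits of complex I that carry cofactors, 3 were measured. ND-75 (CG2286), which holds iron-sulfur clusters, read 9.28, 9.48 and 9.34 in disc G1, 9.13, 9.22 and 9.19 in disc G2, 9.65, 9.71 and 9.60 in S2 G1 and 9.70, 9.68 and 9.71 in S2 G2, with a difference of -0.40 ± 0.05 (adjusted p = 1.9e-05). ND-51 (CG9140), the flavoprotein that binds NADH, read 10.77, 10.80 and 10.76 in disc G1, 10.92, 10.95 and 10.94 in disc G2, 10.92, 10.90 and 10.94 in S2 G1 and 11.10, 11.17 and 11.07 in S2 G2, with a difference of -0.16 ± 0.05 (adjusted p = 0.0069). Both were lower in the disc, and the tissues overlapped in ND-51 and not in ND-75. ND-20 (CG9172), an iron-sulfur subunit near the site of ubiquinone, read 11.74, 11.79 and 11.71 in disc G1, 11.49, 11.67 and 11.61 in disc G2, 11.65, 11.58 and 11.63 in S2 G1 and 11.59, 11.71 and 11.56 in S2 G2. It did not pass, at 0.05 ± 0.05 (adjusted p = 0.412). The genes ND-24, ND-49, ND-30 and ND-23 were not analysed here.

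Subunits were also sorted by the arm of the complex in which their mammalian counterparts lie. In the NADH-binding part of the peripheral arm (ND-75, ND-51, ND-18, ND-13A, ND-B14.5A and ND-B17.2), 5 of 6 were lower and 1 higher, with a median of -0.50. In the ubiquinone-binding part (ND-20, ND-39, ND-13B and ND-B14), 3 of 4 were lower, with a median of -0.30. Of 14 subunits of the membrane arm, 9 were lower and 1 higher, with a median of -0.26, from -1.29 ± 0.07 in ND-B18 to 0.16 ± 0.08 in ND-SGDH, which did not pass (adjusted p = 0.0641). ND-ACP, the acyl carrier protein that also serves fatty acid synthesis, was at -0.74 ± 0.06. Its other probe sets gave -1.27 and -1.04. ND-MLRQ, which mammals carry in complex IV, was at -0.35 ± 0.06. The copy ND-20L, with group means of 5.06 to 5.22, was at 0.00 ± 0.08.

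Complex V differed in both directions. Of 11 members 3 were lower in the disc, 5 were higher and 3 did not pass. When array medians were subtracted, the median of 0.08 became -0.04, and 5 members were lower and 3 higher. Of all genes 48.4% were then lower and 34.4% higher. ATPsyngamma (CG7610), the shaft that turns inside the catalytic head, was lower in the disc. It read 12.57, 12.58 and 12.45 in disc G1, 12.43, 12.47 and 12.44 in disc G2, 13.49, 13.48 and 13.48 in S2 G1 and 13.48, 13.51 and 13.45 in S2 G2. The tissues did not overlap, with a difference of -0.99 ± 0.05 (adjusted p = 1.27e-09) or 1.99-fold, and the gene's second probe set gave -0.83. ATPsynCF6, of the peripheral stalk, was also lower, at -0.83 ± 0.05. ATPsynbeta (CG11154), the catalytic subunit, read 12.90, 12.59 and 12.56 in disc G1, 12.92, 12.79 and 12.78 in disc G2, 13.20, 13.14 and 12.91 in S2 G1 and 13.49, 13.57 and 13.37 in S2 G2. The difference was -0.52 ± 0.08 (adjusted p = 5.4e-05), with an overlap between disc G2 array 2 and S2 G1 array 6, and its second probe set gave -0.18.

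Higher in the disc was ATPsynC (CG1746), which forms the membrane ring. It read 13, 12.90 and 12.89 in disc G1, 12.88, 12.78 and 12.82 in disc G2, 12.37, 12.46 and 12.40 in S2 G1 and 12.37, 12.47 and 12.45 in S2 G2, with every disc array above every S2 array and a difference of 0.46 ± 0.05 (adjusted p = 3.79e-06). ATPsynB and ATPsynE, of the peripheral stalk and the membrane part, were higher by 0.42 ± 0.05 and 0.16 ± 0.05. The call of ATPsynE was lost when array medians were subtracted. ATPsynO (CG4307), which joins the stalk to the head, read 13.33, 13.36 and 13.35 in disc G1, 13.26, 13.26 and 13.25 in disc G2, 13.11, 13.10 and 13.26 in S2 G1 and 13.15, 13.18 and 13.10 in S2 G2. S2 G1 array 6 overlapped disc G2, and the difference of 0.15 ± 0.05 (adjusted p = 0.0143) lost its call when array medians were subtracted (adjusted p = 0.512). The copy ATPsynepsilonL (CG31477) read 8.82, 8.72 and 8.56 in disc G1, 8.64, 8.71 and 8.69 in disc G2, 7.16, 7.28 and 7.64 in S2 G1 and 7.25, 7.24 and 7.42 in S2 G2. It was higher in the disc without overlap, by 1.36 ± 0.09 (adjusted p = 1.37e-08) or 2.57-fold. Without this copy, 4 of 10 members of complex V were higher and 3 lower, with a median of 0.03. ATPsynD, ATPsynF and ATPsyndelta were at 0.08, -0.05 and -0.03 and did not pass. With array medians subtracted, ATPsynF and ATPsyndelta passed as lower in the disc. In 7 of 11 members of complex V and 4 of 7 of complex IV a group mean was at least 13, against array maxima of 14.80 to 14.95. Whether differences are compressed at such intensities was not tested.

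**Figure D2:**
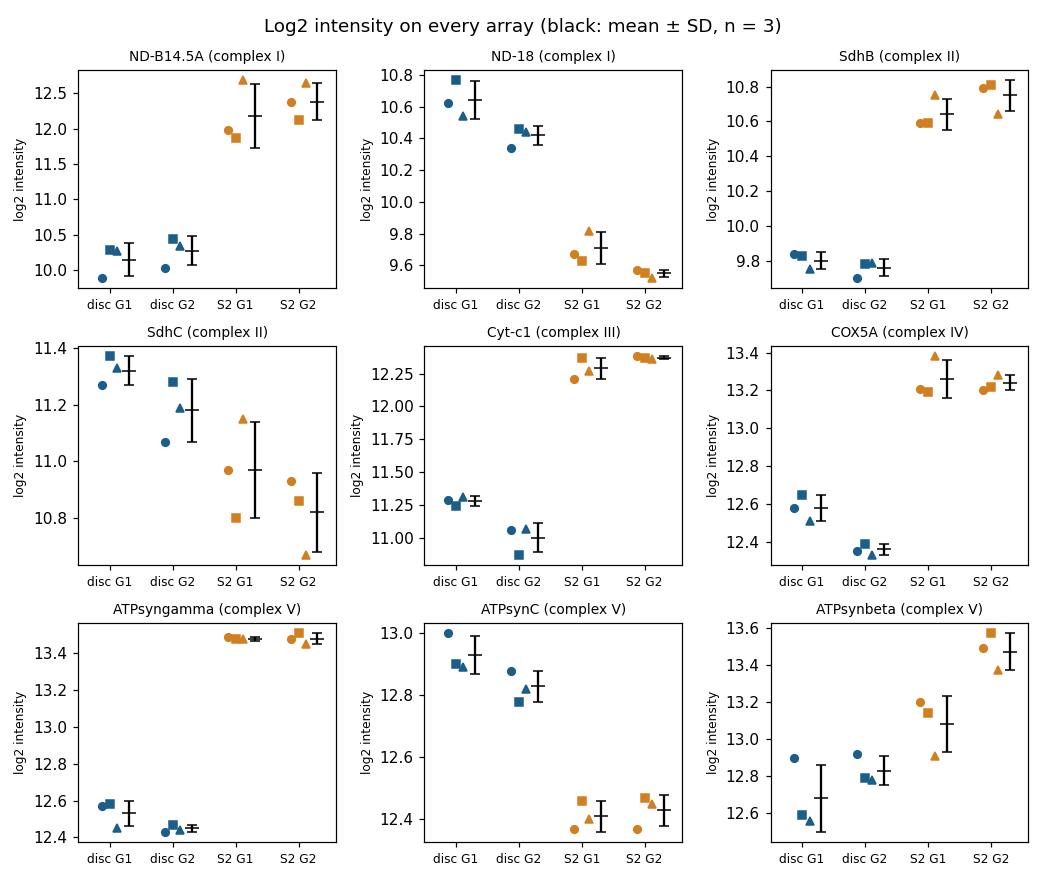
Log2 intensity of 9 members on each of the 12 arrays (wing disc blue, S2 orange), with marker shapes for arrays 2, 3 and 4 of the disc and 4, 5 and 6 of S2. Black bars are means ± SD (n = 3). ND-B14.5A, SdhB, Cyt-c1, COX5A and ATPsyngamma are lower on every disc array, and ND-18 and ATPsynC are higher.

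Respiratory genes that the symbol rule does not catch were looked up from a list. Of 8 such genes, 5 were lower in the disc, 0 were higher and 3 did not pass. Of all genes, 44.7% were lower and 39.9% higher by the same test. ox, of complex III, differed by -0.91 ± 0.08 and cype, of complex IV, by -0.45 ± 0.05, while levy, of complex IV, was at -0.02 ± 0.06. blw, the alpha subunit of the ATP synthase head, was at 0.13 ± 0.07 (adjusted p = 0.0779). sun was lower in the disc, at -0.16 ± 0.06 (adjusted p = 0.0374). The ADP/ATP translocase gene sesB was at -0.23 ± 0.07 and its copy Ant2 at -2.50 ± 0.10, and both passed. Of 7 assembly factors, 6 were lower and 1 higher, with a median of -0.94. CIA30, of complex I assembly, differed by -2.88 ± 0.06 and Coa8 by -1.61 ± 0.08, and Bcs1, which inserts the Rieske protein, by 0.50 ± 0.09.

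Other lists of energy metabolism and of mitochondria were counted in the same way, beside 44.7% of all genes lower and 39.9% higher. Of 8 glycolysis genes, 6 were higher in the disc and 0 lower, with a median of 0.98, led by Pfk (3.06 ± 0.13) and Tpi (1.78 ± 0.07). Of 7 genes of the tricarboxylic acid cycle and its relatives, 4 were higher and 3 lower (median 0.30), with Idh at 1.85 ± 0.06 and Idh3b at -0.68 ± 0.08. Of 12 genes of mitochondrial transcription and DNA, 7 were lower and 3 higher (median -0.59), from -1.75 ± 0.08 in bsf to 1.33 ± 0.08 in the promoter factor gene Dref. Of 11 genes of mitochondrial import and dynamics, 8 were lower and 2 higher (median -0.43), with Opa1, a fusion protein of the inner membrane, at -1.45 ± 0.06. Several lists hold few of their genes because other names matched no symbol that has a probe set of its own. Whether such names are older names of genes measured under another symbol was not checked.

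The comparison of disc G2 with disc G1 asked which members differ between the gates of a growing epithelium. Differences were small. Of the 56 members, 1 fell in G2, 0 rose and 55 did not pass, while 5.63% of all genes fell and 5.43% rose. The member was Cyt-c1, whose values on each disc array are given above. The 3 G2 arrays all lay below the 3 G1 arrays, and the change was -0.28 ± 0.08 (adjusted p = 0.0412). At an unadjusted p under 0.05, 13 members were lower and 1 higher, as were 688 and 1112 of all 6940 genes. The call of Cyt-c1 was lost without any 1 of the 6 disc arrays (adjusted p up to 0.143) or of the 3 S2 G2 arrays. It was also lost under each of 3 other scalings and with no filter (adjusted p up to 0.107). In a fit blocked on replicate number 4 members fell: Cyt-c1, ND-ACP, ND-B17 (an accessory subunit of complex I) and COX5A (adjusted p = 0.029, 0.0373, 0.043 and 0.0497), and 7.85% of all genes. With a prior variance that follows intensity 9 members fell, beside 6.14% of all genes, and with array weights 11, beside 9.81%.

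Though few members passed, their estimates lay mostly on the same side. The median change was -0.12, against 0.06 over all genes, and 49 of 56 estimates were below 0. A total of 41 members were lower in G2 in each of the 3 pairs of same-numbered arrays, as were 22% of all genes, and 3 members were higher in each pair, as were 38.4% of all genes. All 7 members of complex III and all 7 of complex IV were lower in each pair, with median changes of -0.16 and -0.15. In complex I 17 of 27 were lower in each pair, in complex II 2 of 4 and in complex V 8 of 11, with medians of -0.11, -0.09 and -0.09. The medians of the 5 complexes were below 0 under each of 3 other scalings of the arrays. By pair, the median of the members was -0.17, -0.10 and -0.11, and that of all genes 0.07, 0.03 and 0.07.

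**Figure D3:**
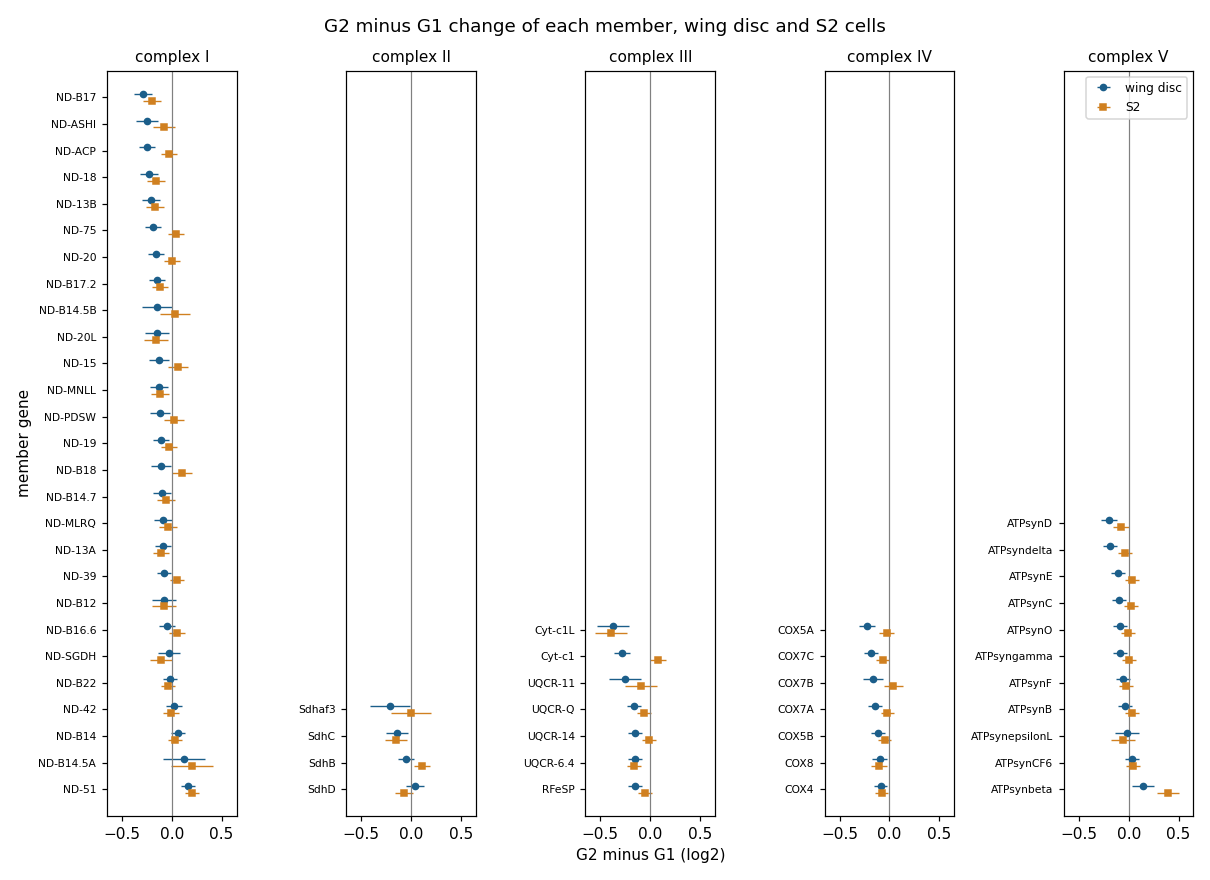
G2 minus G1 change (log2) of each member in the wing disc (blue circles) and in S2 cells (orange squares), by complex, with SE from the fit. In the disc 49 of 56 points lie below 0, ND-51 lies above 0 in both tissues, and ATPsynbeta in S2 is the highest at 0.39.

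Of the members with smaller p in the disc, COX5A was at -0.23 ± 0.08 (adjusted p = 0.0911), ND-ACP at -0.25 ± 0.08 (adjusted p = 0.0759) and ND-B17 at -0.29 ± 0.09 (adjusted p = 0.0798). In each of the 3 every disc G2 array lay below every disc G1 array, as in 25 of the 56 members and 911 of 6940 genes. The 2 other probe sets of ND-ACP passed the test, at -0.31 (adjusted p = 0.0204) and -0.27 (adjusted p = 0.0488). ND-51 lay on the other side, with G2 above G1 on every array of both tissues, at 0.16 ± 0.07 (adjusted p = 0.166) in the disc and 0.20 ± 0.07 (adjusted p = 0.0902) in S2. In the disc, Cyt-c1L was at -0.37 ± 0.16, the lowest estimate of any member (adjusted p = 0.174).

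Markers of other cells moved between the disc gates at the same time. Of 5 adult muscle precursor genes 5 fell in G2, and their mean log2 level was 9.37 to 9.77 on disc G1 arrays and 7.71 to 8.39 on disc G2 arrays. Of 8 blood cell markers 2 fell, Col4a1 and vkg (-1.62 ± 0.23 and -1.62 ± 0.22), while Hml, srp, Pxn, NimC1, crq and Ppn did not pass. The mean level of the 8 was 6.97 to 7.40 on disc G1 arrays and 6.55 to 6.76 on disc G2 arrays. Of the tracheal list, verm, uif and vvl rose. The tracheal gene btl stayed below the filter, with means of 4.18 in disc G1 and 4.19 in disc G2. Of 7 disc markers 3 rose in G2 (eyg by 1.49 ± 0.09, pnr by 0.96 ± 0.14 and ap by 0.33 ± 0.09). Of 3 neuronal and glial markers moody rose by 1.24 ± 0.18 and nrv2 was lower, at -0.55 ± 0.13, and the fat body list's FASN1 was lower, at -0.63 ± 0.16. In S2 G2 moody and nrv2 rose by 0.72 ± 0.18 and 0.50 ± 0.13 and the disc marker ci was lower, at -0.41 ± 0.11, while 0 muscle, blood cell and tracheal markers passed. The part of these cells in the values of the members was not tested, and in bulk samples fewer cells of a type and less RNA per cell cannot be told apart.

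The same comparison in S2 cells gave 1 member higher in G2, 0 lower and 55 that did not pass, where 6.74% of all genes rose and 3.85% fell. At an unadjusted p under 0.05, 2 members were higher and 2 lower, as were 1098 and 675 of all 6940 genes. The member was ATPsynbeta, the catalytic subunit of the ATP synthase, which went from 13.08 ± 0.15 in G1 to 13.47 ± 0.10 in G2 (SD, n = 3). All 3 G2 arrays lay above the G1 arrays, and the change was 0.39 ± 0.11 (adjusted p = 0.0484) or 1.31-fold. Its second probe set gave 0.14 (adjusted p = 0.363). The call was lost without 11 of the 12 arrays in turn (adjusted p up to 0.157, without S2 G2 array 5), and it held without disc G1 array 2. Quantile normalization (adjusted p = 0.105) and cyclic loess removed it too. In the disc ATPsynbeta was at 0.14 ± 0.11 (adjusted p = 0.471).

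Over the members the median S2 change was -0.03 (0.03 over all genes). With array medians subtracted the median of the members was 0.01 (0.07 over all genes). Quantile normalization and cyclic loess each gave -0.05 for the members, with 0.0 and -0.02 over all genes. The lowest estimate was that of the copy Cyt-c1L, at -0.39 ± 0.16 (adjusted p = 0.155), with every S2 G2 array below every S2 G1 array. UQCR-6.4 was at -0.16 ± 0.07 (adjusted p = 0.206), also without overlap of the gates. S2 G2 lay wholly below S2 G1 in 9 of the 56 members and 791 of 6940 genes. A total of 17 members were lower in each of the 3 pairs, 4 of 7 in complex III, 4 of 7 in complex IV and 0 of 11 in complex V, and 3 members were higher in each pair. Among all genes 21.8% were lower and 28.7% higher in each pair. The pairs differed, since the median of the members was 0.01 and 0.02 in pairs 4 and 5 and -0.10 in pair 6, where 51 of 56 members were lower in G2.

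**Figure D4:**
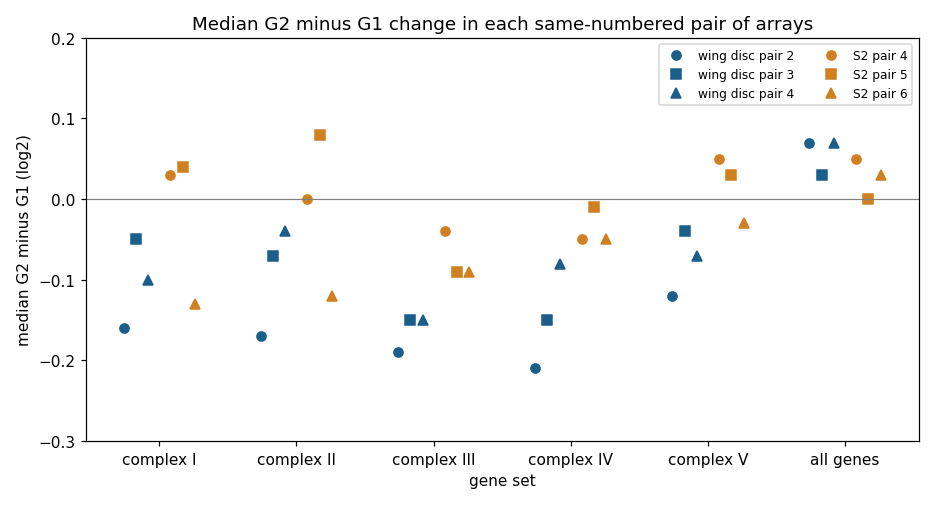
Median G2 minus G1 change (log2) of each complex and of all genes in the 3 same-numbered pairs of the wing disc (blue) and of S2 cells (orange). All disc medians of complexes I to V lie below 0 (-0.21 to -0.04), while those of all genes lie between 0.03 and 0.07.

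The phase changes of disc and S2 were then compared directly. For the disc change minus the S2 change, 0 of 56 members passed in either direction (limma). Among all genes 2.31% were higher and 3.13% lower. At an unadjusted p under 0.05, 1 member was lower, as were 696 of all 6940 genes. The member was Cyt-c1, at -0.37 ± 0.11 (adjusted p = 0.0923). With replicate number as a block it was also at -0.37 ± 0.10 (adjusted p = 0.0556), and it passed with array weights and with a prior variance that follows intensity. The median over the members was -0.08 and that over all genes 0.01. For ATPsynbeta the difference was -0.25 ± 0.16 (adjusted p = 0.461). The fall of Cyt-c1 in the disc and the rise of ATPsynbeta in S2 were therefore not shown to differ between the tissues.

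The related lists were also compared between the gates, where 5.43% of all genes rose and 5.63% fell in the disc and 6.74% rose and 3.85% fell in S2. Of 8 respiratory genes outside the symbol rule, 0 passed in either tissue. Of the assembly factors CIA30 rose in disc G2 (0.35 ± 0.09, adjusted p = 0.032), and 0 of 7 passed in S2. Of mitochondrial transcription and DNA genes, mTerf3, a transcription termination factor family member, rose in both tissues (0.55 ± 0.11 in the disc and 0.39 ± 0.11 in S2). mTerf5, of the same family, rose in S2 (0.36 ± 0.08), and mtSSB, which binds mitochondrial DNA, fell in the disc (-0.43 ± 0.12, adjusted p = 0.0363). In S2 G2 ScsbetaG, of succinyl-CoA synthetase, rose by 0.46 ± 0.08, and the import genes Tim8 and Tom70 rose by 0.41 ± 0.10 and 0.32 ± 0.08. Of 8 glycolysis genes 0 passed in either tissue, with medians of 0.17 in the disc and 0.01 in S2.

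Probe sets that match several genes were kept out of the members. Of 4 such probe sets with a respiratory name, 3 passed the filter. The probe set of COX6B and CG18809 was lower in the disc, at -0.36 ± 0.05, as was that of ND-AGGG and CG40472, at -0.68 ± 0.11. The probe set of ATPsynG and beat-Vb was at -0.02 ± 0.05. None of the 3 passed between the gates of either tissue.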

How the data were processed

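Array intensity on a linear scale was deposited as an RMA-summarised table, with R 2.15.2 named, per the submitters' processing notes. No other setting of it is known here. The design had assumed log2 values, so log2 was taken of the deposited intensity. Of 18952 probe sets, 13646 carried 1 gene of the 2016 platform annotation, and 402 with several genes and 4721 with none listed were not members. Each gene was followed by the probe set with the highest mean log2 over the 12 arrays. A filter of at least 5 on 3 arrays left 8580 probe sets and 6940 genes. limma 3.58.1 (R 4.3.3) fitted 1 coefficient for each of 4 groups, and lmFit with eBayes gave 4 contrasts, with Benjamini-Hochberg adjustment over all 8580 probe sets and an adjusted p under 0.05. Errors after ± are SE of the fit unless SD is named, and p-values are two-sided. Folds are the absolute log2 differences of the fit taken back to the linear scale, without their direction. The number of arrays limits the precision.

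Same-numbered G1 and G2 arrays of a tissue deviated together (r of 0.31 to 0.52 in 6 pairs, -0.5 to 0.01 in 12 other combinations), so the numbers were taken to pair the samples. The fit was tested on simulated data. Alternatives were other scalings, filters, probe set choices, weights, variance models, a replicate block and left-out arrays. The members and lists were chosen with earlier results of these data known. Values on every array were given for members that passed a phase or interaction test, for the highest and lowest difference between tissues among members of a complex that passed, and for catalytic, cofactor-bearing and core structural subunits. Listed genes were named where they passed a phase test or had the highest or lowest differences between tissues. The genes levy, blw, sesB, cype, sun, ND-ACP, ND-B17 and other members given by their estimate alone were chosen after their values were seen. Roles in complex I follow mammalian counterparts. Genes without a probe set of their own were not analysed here.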

Additional observations from a re-analysis of the deposited data

How the results depend on the processing

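Between the tissues, leaving out each array in turn gave 37 to 39 lower and 7 to 9 higher in the disc, against 38 and 8. Subtracting array medians gave 44 lower and 5 higher, beside 48.4% and 34.4% of all genes. In the disc, members lower in G2 numbered 1. They numbered 0 with array medians subtracted, quantile normalization, cyclic loess, no filter or the compared groups alone, 2 with the mean of probe sets, 9 with a variance trend and 11 with array weights. Of all genes, 5.79%, 6.14% and 9.81% were lower with the mean of probe sets, a variance trend and array weights. Array weights also gave 1 higher, ND-51, beside 15.3% of all genes. Leaving out 1 array gave 0 to 3 members lower, with 3 without S2 G1 array 6, where 6.57% of all genes were lower. With the replicate block, which removes differences between pairs, 4 members were lower in disc G2, as were 7.85% of all genes. In S2 cells, members higher in G2 numbered 1, with the replicate block as well, and 0 with quantile normalization, cyclic loess, no filter or the compared groups alone. They numbered 2 with array weights or a variance trend, and 0 to 1 with 1 array left out. Of all genes, 11.9% rose with the replicate block, 13.6% with array weights and 7.09% with a variance trend. A variance trend gave 1 lower, UQCR-6.4, beside 4.12% of all genes. For the difference of the changes, 0 members passed, with the replicate block too, and 1 (Cyt-c1, lower) with array weights or a variance trend. Of all genes, 7.98% were lower with array weights and 3.44% with a variance trend. No named member changed sign among those that passed. The causes were not tested. The replicate block was not run between tissues, whose pairs lie within a tissue, and the fit to the compared groups applies to the phase comparisons alone. With 3 arrays a group, a member whose change is close to its SE could not be told from 0.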
